A study of Mus musculus with 9 samples.

Results

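Integrin subunits that lie outside the hemidesmosome were followed across 3 mouse airway and lung cell lines. The 10 genes Itga1, Itga2, Itga3, Itga5, Itgav, Itgb1, Itgb3, Itgb5, Itgb6 and Itgb8 were chosen by name, and every non-control probe set that carries one of these symbols alone was taken. This gave 30 probe sets of 45037, and 10 genes of the 18193 that were tested with 1 probe set each. The wild-type line (WT-NLE) and the knockout line (NULL-NLE) are non-tumorigenic epithelial lines from tracheas of mice 3 weeks old, the former with Gprc5a intact and the latter lacking it. The tumour line, MDA-F471, was derived from a lung adenocarcinoma of a female Gprc5a-knockout mouse 16 months after injection of the tobacco carcinogen NNK. All 3 lines share the mixed strain given as C57/BL6 x sv129, each was measured on 3 arrays, and each stands for its genotype or tumour alone, so that line, handling and genotype cannot be told apart. The tumour line thus shares the Gprc5a deletion with the knockout line and differs from both tracheal lines in organ, carcinogen and the mouse's age.

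Integrins are receptors made of an alpha and a beta subunit that cross the cell membrane and tie the extracellular matrix to the actin cytoskeleton. The alpha subunit largely sets the ligand: Itga1 and Itga2 with Itgb1 bind collagens, Itga3 with Itgb1 binds laminins, Itga5 with Itgb1 binds fibronectin, and Itgav binds ligands with an Arg-Gly-Asp (RGD) motif together with Itgb1, Itgb3, Itgb5, Itgb6 or Itgb8. In airway epithelium the complexes with Itgb6 and Itgb8 are known for releasing active TGF-beta from its latent form. Transcript levels do not show which pairs reach the cell surface.

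Gprc5a itself read 8.32 to 8.74 log2 on the wild-type arrays, 7.09 to 7.20 on the knockout arrays and 6.96 to 7.09 on the tumour arrays, a knockout minus wild-type difference of -1.41 ± 0.11; where its probes lie relative to the deletion is not known here. All 9 measured epithelial markers (Cdh1, Epcam, Krt5, Krt14, Krt8, Krt18, Krt19, Cldn4 and Esrp1) lay over the background floor on all arrays of the wild-type and tumour lines, and 8 of 9 did in the knockout line. The floor, a log2 signal of 5.15, is the 95th percentile of 27 bacterial control probe sets that match no mouse RNA. Of all 45037 non-control probe sets, 29936 were over it on all 9 arrays, so a signal over the floor does not alone show expression. Of the 10 fibroblast markers, 8 to 9 a line were over the floor on all arrays, and Col3a1 was under it on every array. Of the 10 leukocyte markers, 6 to 7 a line were over it on all arrays, and Ptprc and Itgam were under it on every array. Of the 8 endothelial markers, 2 to 3 a line were over it on all arrays, and Tek, Tie1, Emcn and Vwf were under it on every array. The mean log2 signal of the 10 leukocyte markers was 5.75 to 5.84 on the wild-type, 5.95 to 6.05 on the knockout and 6.78 to 6.84 on the tumour arrays. Lcp1, an actin-bundling protein, was at least 57.7-fold higher in the tumour line than in either other line. Of these 10, Lcp1 and Cd53 alone were called, both higher in both comparisons of the tumour line. The median differences of the 10 were 0.13, 0.06 and 0.10 for knockout against wild-type, tumour against knockout and tumour against wild-type. The means of the 10 fibroblast markers lay between 5.62 and 5.79. The means of the 7 platelet and megakaryocyte markers were 7.25 to 7.45, 6.74 to 6.95 and 7.51 to 7.60 on the wild-type, knockout and tumour arrays. Of these 7, the chemokine Ppbp alone was called. It fell in the knockout against the wild-type line (-4.21 log2) and was 5.19 log2 higher in the tumour than the knockout line. The median differences of the 7 were 0.03, -0.05 and -0.08 for knockout against wild-type, tumour against knockout and tumour against wild-type. The means of the 6 smooth muscle markers were 6.72 to 6.81, 6.51 to 6.66 and 6.31 to 6.43 on the wild-type, knockout and tumour arrays. Of these 6, Acta2 alone was called, in all 3 comparisons, and the list's median differences were 0.06, 0.00 and 0.14 for knockout against wild-type, tumour against knockout and tumour against wild-type. The part of these markers in the integrin values was not tested. In bulk RNA, fewer cells of a type and less RNA per cell cannot be told apart.

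Of the 10 integrin genes, 4 passed the threshold between tumour and knockout lines, 3 between tumour and wild-type lines and 0 between the tracheal lines. The threshold was a difference of 2-fold or more together with a limma p, adjusted by Benjamini-Hochberg, under 0.05. Between tumour and knockout lines Itga2, Itga3 and Itgb3 rose and Itgb5 fell: 3 of 10 members were higher, against 7.79% of all genes, and 1 of 10 was lower, against 6.38%. Between tumour and wild-type lines Itga2 and Itga3 rose and Itgb5 fell, 2 of 10 against 8.09% and 1 of 10 against 8.46%. Between knockout and wild-type lines 0 of 10 were called in limma, against 1.90% of all genes called higher and 2.98% called lower. Both comparisons of the tumour line share its arrays.

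Without a fold threshold, an adjusted p under 0.05 was reached by 2 of 10 members between knockout and wild-type (26.4% of all genes), 8 between tumour and knockout (44.5%) and 7 between tumour and wild-type lines (47.3%). The 8 and the 7 include Itgb8, under the floor on every array, and Itgav, whose probe sets gave opposite signs. An unadjusted p under 0.05 was reached by 3 (35% of all genes), 8 (49.5%) and 7 (51.9%) of the 10 in the same order. Between the tracheal lines the members' shares were near those of all genes.

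The median difference of the 10 members was 0.00 log2 between knockout and wild-type, 0.13 between tumour and knockout and 0.21 between tumour and wild-type lines, beside 0.00, 0.00 and 0.01 over all genes. Regardless of sign, the median size was 0.08 log2 between knockout and wild-type lines, beside 0.15 over all genes. It was 0.49 between tumour and knockout lines, beside 0.22, and 0.43 between tumour and wild-type lines, beside 0.25. Arrays were fully separated for 3 of 10 members between knockout and wild-type (39.1% of all genes), for 7 between tumour and knockout (52.3%) and for 6 between tumour and wild-type (54.7%).

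**Figure D1:**
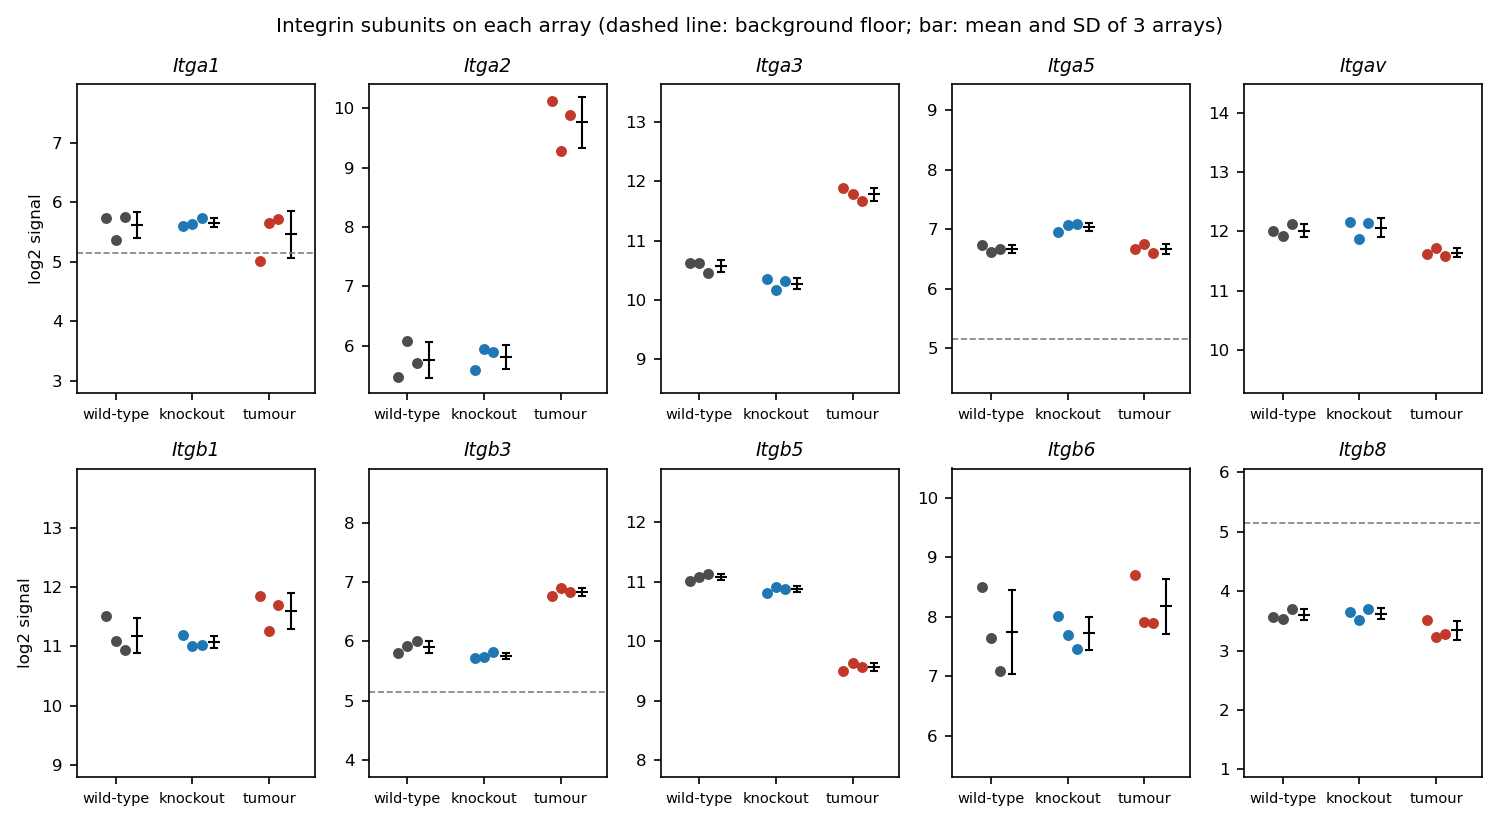
Log2 signal of each of the 10 integrin genes on each array, by line, with the mean and SD of 3 arrays. Every panel spans the same number of log2 units. The dashed line marks the background floor of 5.15 in those panels whose range reaches it. The tumour arrays of Itga2 read 9.28 to 10.12 against at most 6.08 elsewhere, those of Itgb5 read 9.49 to 9.63 against at least 10.82, and Itgb8 lies under the floor on all arrays.

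The sequences just upstream of 4 of these genes are shown because 3 of them (Itga2, Itga3 and Itgb5) were called in both comparisons of the tumour line and the fourth, Itga1, is the gene next to Itga2 on the same strand. They are the 250 bases before the start site in RefSeq's table for GRCm38.p6, written 5′ to 3′ in the direction of the gene; 9 of the 10 members had an entry, and of the 2 entries for Itga3 the one nearest the start of its gene model was used, 130 bases from it. Capitals mark matches, on either strand, to a GC box (GGGCGG) or an ETS site (CCGGAA).
Itga1, chr13:115101965-115102214, minus strand: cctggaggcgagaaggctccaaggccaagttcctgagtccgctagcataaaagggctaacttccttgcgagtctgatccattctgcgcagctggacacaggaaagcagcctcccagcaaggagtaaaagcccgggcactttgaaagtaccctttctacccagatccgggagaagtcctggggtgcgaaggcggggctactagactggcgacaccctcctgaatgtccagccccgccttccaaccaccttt
Itga2, chr13:114932101-114932350, minus strand: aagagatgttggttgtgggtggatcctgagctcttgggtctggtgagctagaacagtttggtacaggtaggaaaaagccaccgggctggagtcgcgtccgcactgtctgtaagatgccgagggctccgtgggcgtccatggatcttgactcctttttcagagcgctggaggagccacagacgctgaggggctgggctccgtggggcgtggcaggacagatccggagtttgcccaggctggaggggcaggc
Itga3, chr11:95076715-95076964, minus strand: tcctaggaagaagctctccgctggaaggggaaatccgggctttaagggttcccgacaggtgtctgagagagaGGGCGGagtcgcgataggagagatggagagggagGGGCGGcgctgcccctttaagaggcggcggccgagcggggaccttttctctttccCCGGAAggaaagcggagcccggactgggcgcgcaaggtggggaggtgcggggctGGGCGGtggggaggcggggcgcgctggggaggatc
Itgb5, chr16:33829415-33829664, plus strand: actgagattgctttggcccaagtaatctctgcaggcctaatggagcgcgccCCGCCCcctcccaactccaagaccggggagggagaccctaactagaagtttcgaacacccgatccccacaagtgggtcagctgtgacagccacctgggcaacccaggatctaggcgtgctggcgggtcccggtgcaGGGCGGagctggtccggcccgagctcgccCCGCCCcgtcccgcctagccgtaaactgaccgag
The windows of Itga3 and Itgb5 held 3 GC boxes each, and those of Itga1 and Itga2 held neither motif. A GC box was found in 4 of the 9 windows, those of Itga3, Itga5, Itgb1 and Itgb5. The start site used for Itgav lay 2094 bases from the start of its gene model. Itgb6 also had 2 entries, and the one at the start of its gene model was used. Itga3 alone among the 9 members had an ETS site, starting 89 bases before the start site. Over all 32851 such windows in the table, 32.7% held a GC box and 12% an ETS site. An AP-1 site (TGANTCA, 6.75% of all windows) and a TATA box (TATAAA, 12.4%) were searched on both strands as well and were found in 0 of the 9 windows; a CCAAT box (CCAAT, 33.8%) was found in 1, that of Itgb8.

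Itga2, the alpha subunit of the collagen and laminin receptor known on platelets and epithelia, had the largest difference among the members. Its probe set read 5.47, 6.08 and 5.72 log2 in the wild-type line (mean 5.76 ± 0.31 SD, n = 3), 5.58, 5.95 and 5.89 on the knockout arrays (5.81 ± 0.20) and 10.12, 9.28 and 9.88 on the tumour arrays (9.76 ± 0.43). The tumour arrays stood clear of all others, while the arrays of both tracheal lines overlapped. The tumour line was 15.5-fold higher than the knockout line (log2 difference 3.95 ± 0.19 SE, limma adjusted p = 2.64e-10) and 16.1-fold higher than the wild-type line (4.0 ± 0.19, adjusted p = 1.83e-10). The tracheal signals lay within 1 log2 unit of the floor. Knockout and wild-type lines differed by 0.05, with a 95% interval from -0.36 to 0.46 (adjusted p = 0.893).

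Itga1, the other collagen-binding alpha subunit and the genomic neighbour of Itga2, stayed near the floor. Its brighter probe set read 5.73, 5.37 and 5.76 on the wild-type, 5.60, 5.63 and 5.74 on the knockout and 5.01, 5.66 and 5.72 on the tumour arrays. Tumour replicate 1 alone was under the floor, and the lines overlapped. The difference between tumour and knockout lines was -0.20 ± 0.16 (adjusted p = 0.370), with a 95% interval from -0.55 to 0.15 that does not reach the 3.95 of Itga2. The second Itga1 probe set was under the floor on all 9 arrays.

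Itga3, the alpha subunit of the main laminin receptor of epithelial cells besides the hemidesmosome's, rose in the tumour line on all 3 of its probe sets. The brightest read 10.63, 10.62 and 10.45 on the wild-type arrays (10.57 ± 0.10), 10.35, 10.17 and 10.32 on the knockout arrays (10.28 ± 0.10) and 11.89, 11.79 and 11.67 on the tumour arrays (11.78 ± 0.11). No array of one line overlapped with another line, and the order was knockout, wild-type, tumour. The difference was 1.51 ± 0.10 against the knockout line (2.84-fold, adjusted p = 5.96e-09) and 1.21 ± 0.10 against the wild-type line (2.32-fold, adjusted p = 5.47e-08). Tested with every probe set on its own, the other probe sets gave 1.69 ± 0.18 and 2.11 ± 0.26 against the knockout line and 1.52 ± 0.18 and 2.06 ± 0.26 against the wild-type line. The knockout minus wild-type difference of -0.29 ± 0.10 (adjusted p = 0.0383) was under 2-fold, and the other probe sets gave -0.17 ± 0.18 and -0.05 ± 0.26.

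Itga5, the fibronectin-binding alpha subunit, was highest in the knockout line, by less than 2-fold. Its brightest probe set read 6.74, 6.61 and 6.66 on the wild-type, 6.96, 7.08 and 7.08 on the knockout and 6.66, 6.74 and 6.59 on the tumour arrays. Every knockout array was above every array of the other lines. The difference was 0.37 ± 0.09 against the wild-type line (adjusted p = 0.00545) and -0.37 ± 0.09 for tumour against knockout (adjusted p = 0.00257), while tumour and wild-type differed by 0.00 with a 95% interval from -0.19 to 0.19. A second probe set kept the knockout arrays on top, at 6.36 to 6.44 against 5.99 to 6.32, with 0.27 ± 0.10 against wild-type (adjusted p = 0.0928). With this second one standing for the gene, as it does once probe sets with an _s_at or _x_at suffix are left out, the adjusted p was 0.063 for knockout against wild-type and 0.102 for tumour against knockout.

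Itgav, the common alpha subunit of the RGD-binding receptors, gave opposite signs on different probe sets. The brightest, 1452784_at, read 12.01, 11.92 and 12.12 on the wild-type arrays, 12.16, 11.88 and 12.15 on the knockout arrays and 11.62, 11.73 and 11.59 on the tumour arrays. The tumour arrays were the lowest on this probe set, by 0.42 ± 0.10 against the knockout line (log2 difference -0.42, adjusted p = 0.00312) and by 0.37 ± 0.10 against the wild-type line (-0.37, adjusted p = 0.00672), both under 2-fold. A further probe set, 1421198_at, read 8.62, 8.13 and 7.33 on the wild-type arrays, 8.56, 8.74 and 8.65 on the knockout arrays and 9.67, 8.91 and 9.19 on the tumour arrays. Here the tumour arrays were the highest, and the difference of 1.23 ± 0.27 against the wild-type line was called (adjusted p = 0.00300, all probe sets tested). Without wild-type replicate 3 it was 0.88 (adjusted p = 0.00414) and under 2-fold. The third probe set over the floor, 1432296_a_at, differed by 0.45 ± 0.16 between tumour and wild-type lines (adjusted p = 0.0438), so that no single direction can be given for Itgav in the tumour line.

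Itgb1, the beta partner of Itga1, Itga2, Itga3 and Itga5, read 11.51, 11.09 and 10.94 on the wild-type arrays, 11.19, 11.00 and 11.03 on the knockout arrays and 11.85, 11.27 and 11.69 on the tumour arrays. The tumour arrays lay above those of the knockout line and overlapped with those of the wild-type line. The difference was 0.53 ± 0.16 against the knockout line (adjusted p = 0.0116) and 0.43 ± 0.16 against the wild-type line (adjusted p = 0.0362), under 2-fold in each case. The other bright probe sets, 1426918_at and 1427771_x_at, gave 0.65 ± 0.15 and 0.39 ± 0.13 against the knockout line. The 95% interval of this difference against the knockout line ran from 0.20 to 0.87 for Itgb1, from 3.54 to 4.36 for its partner Itga2 and from 1.30 to 1.71 for its partner Itga3; the difference between these differences was not tested.

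Among the beta partners of Itgav, Itgb5 fell in the tumour line. Itgb5, part of the vitronectin receptor of many epithelia, read 11.02, 11.08 and 11.12 on the wild-type arrays (11.07 ± 0.05), 10.82, 10.91 and 10.89 on the knockout arrays (10.87 ± 0.05) and 9.49, 9.63 and 9.57 on the tumour arrays (9.56 ± 0.07). The tumour arrays lay more than 1 log2 unit below all others. The log2 difference was -1.31 ± 0.09 against the knockout line (2.48-fold lower, adjusted p = 7.32e-09) and -1.51 ± 0.09 against the wild-type line (2.85-fold lower, adjusted p = 1.21e-09). All 4 Itgb5 probe sets were called lower in both comparisons, from -1.31 to -1.94 against the knockout line and from -1.41 to -2.26 against the wild-type line.

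Itgb3, the beta subunit of the vitronectin receptor known from platelets, osteoclasts and invading tumour cells, rose in the tumour line on 1 of its 2 probe sets. Probe set 1455257_at read 5.80, 5.93 and 6.01 on the wild-type arrays, 5.73, 5.74 and 5.82 on the knockout arrays and 6.76, 6.90 and 6.84 on the tumour arrays. All tumour arrays were above all others. The difference was 1.07 ± 0.09 against the knockout line (2.10-fold, adjusted p = 1.23e-07) and 0.92 ± 0.09 against the wild-type line (1.89-fold, adjusted p = 5.35e-07), the second under the 2-fold threshold. Probe set 1421511_at read 5.53 to 5.80 over all 9 arrays and gave 0.09 ± 0.09 against the knockout line (adjusted p = 0.516). With the mean of its probe sets Itgb3 differed by 0.58 between tumour and knockout lines and was no longer called. The signals of both probe sets lay within 2 log2 units of the floor.

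Itgb6, the epithelial subunit that with Itgav activates latent TGF-beta, varied widely among arrays of a line and was called in no comparison. Its brighter probe set read 8.50, 7.65 and 7.08 on the wild-type arrays (7.74 ± 0.71), 8.01, 7.70 and 7.45 on the knockout arrays (7.72 ± 0.28) and 8.71, 7.91 and 7.90 on the tumour arrays (8.18 ± 0.46). All 3 lines overlapped. The difference was 0.45 ± 0.29 between tumour and knockout lines (adjusted p = 0.237), and its 95% interval from -0.16 to 1.07 includes a 2-fold change. The second probe set gave 0.10 ± 0.24 (adjusted p = 0.820).

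Itgb8, the other TGF-beta-activating partner of Itgav, read 3.22 to 3.71 on its only probe set. This was under the floor on every array, so no fold is given; the fitted differences, -0.28 between tumour and knockout lines (adjusted p = 0.0346) and -0.26 between tumour and wild-type lines (adjusted p = 0.0447), lie between signals under the floor.

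Over the 30 member probe sets tested on their own, 5 were called higher and 4 lower between tumour and knockout lines, against 6.19% and 5.18% of all 45037 probe sets. Against the wild-type line 5 were called higher and 4 lower, against 6.69% and 6.42%. For knockout against wild-type 0 of 30 were called in limma, against 1.61% and 2.11%, and 7 had an unadjusted p under 0.05, against 27.4%. The 9 called probe sets between tumour and knockout lines belong to 4 genes, and probe sets of 1 gene share their transcript. Of the 30, 20 were over the floor on all 9 arrays, 8 were under it on all 9 and 2 were mixed. Of all 45037 probe sets, 29936 were over it on all 9.

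**Figure D2:**
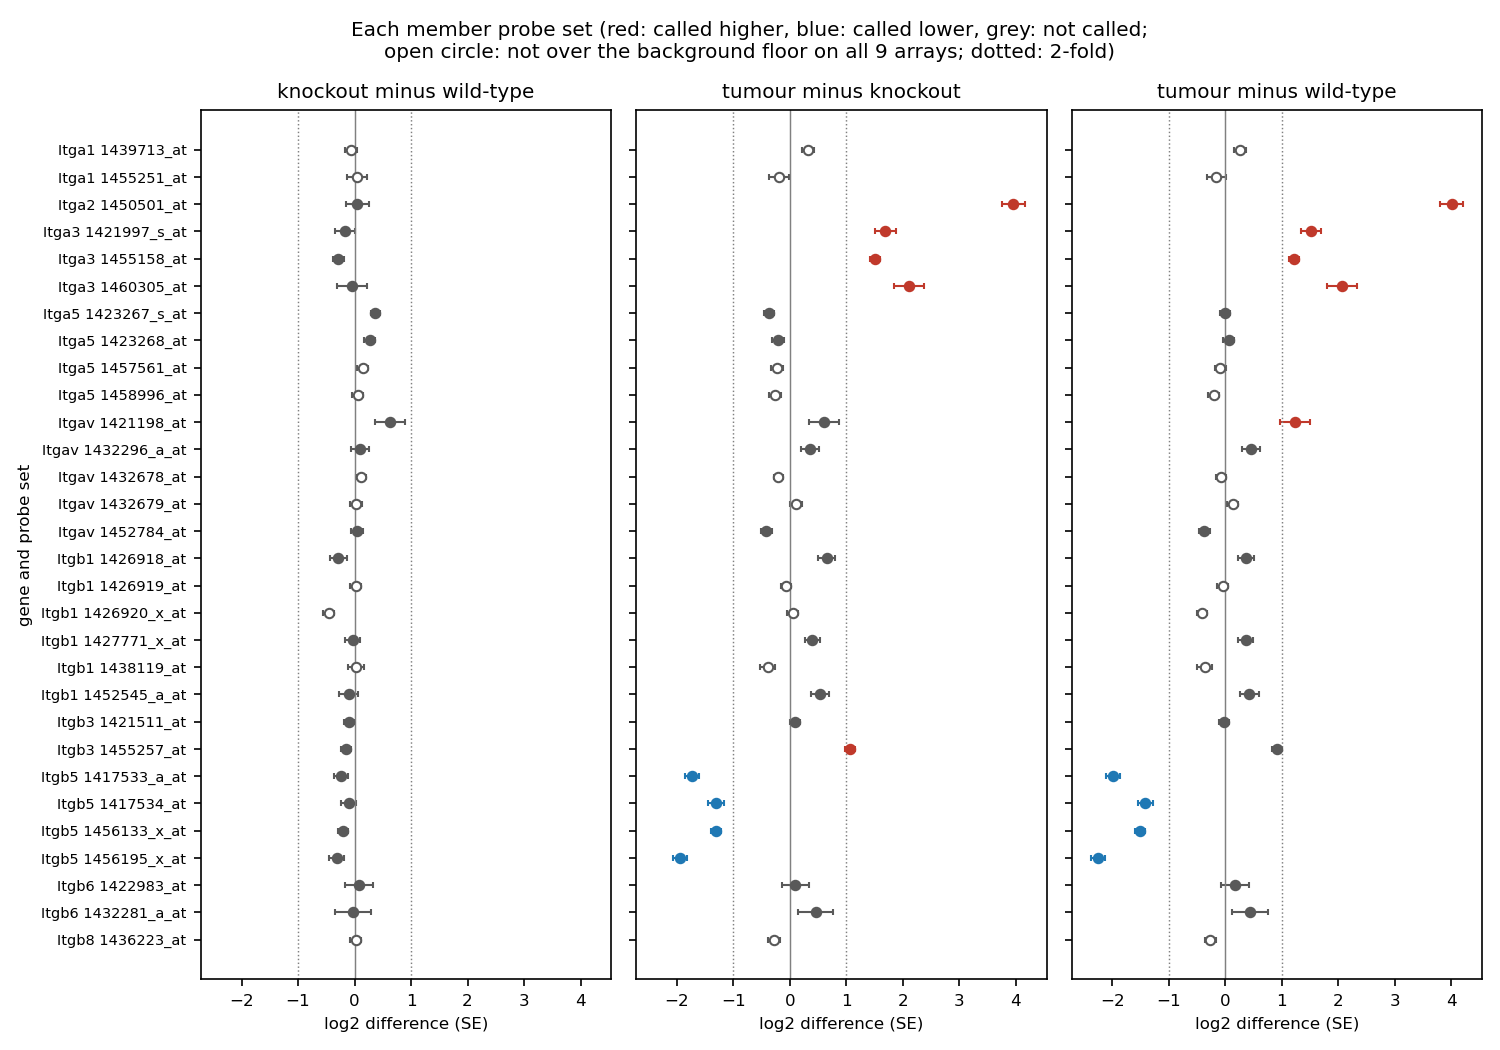
Log2 difference of each of the 30 integrin probe sets in each comparison, with its SE from limma; filled circles were over the background floor on all 9 arrays, red and blue mark calls and dotted lines mark 2-fold. The 3 Itga3 and the 4 Itgb5 probe sets each lie on 1 side in both tumour comparisons, whereas Itgav has probe sets on both sides of 0.

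Several members varied widely among the wild-type arrays. Of the 20 member probe sets over the floor, 15 were highest on wild-type replicate 1 and 13 were lowest on wild-type replicate 3, where over the 29936 non-control probe sets over the floor these shares were 34.8% and 31.7%. Itga3 probe set 1460305_at read 7.86, 7.30 and 6.55 on wild-type replicates 1, 2 and 3, and Itgb6 probe set 1422983_at read 7.95, 7.32 and 6.74. The excess of 3' over 5' signal of beta-actin, a sign of degraded RNA or incomplete labelling, was 0.75, 1.09 and 1.78 log2 on the same arrays, and that of Gapdh was 0.33, 0.90 and 1.20. In the knockout line the beta-actin values were 0.90 to 0.95, and in the tumour line 0.37 to 0.74 (exact two-sided permutation p = 0.1 for tumour against either line, the smallest that 3 against 3 arrays can give). The Gapdh values were 0.47 to 0.57 in the knockout and 0.21 to 0.75 in the tumour line, and the tumour line differed by -0.05 from the knockout line (exact permutation p = 0.7) and by -0.34 from the wild-type line (exact permutation p = 0.3). The part of these differences in the integrin values was not tested. Without wild-type replicate 3 the calls of member genes numbered 0, 4 and 3 for knockout against wild-type, tumour against knockout and tumour against wild-type, and all 4 and all 3 were shared with those made on all arrays.

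**Figure D3:**
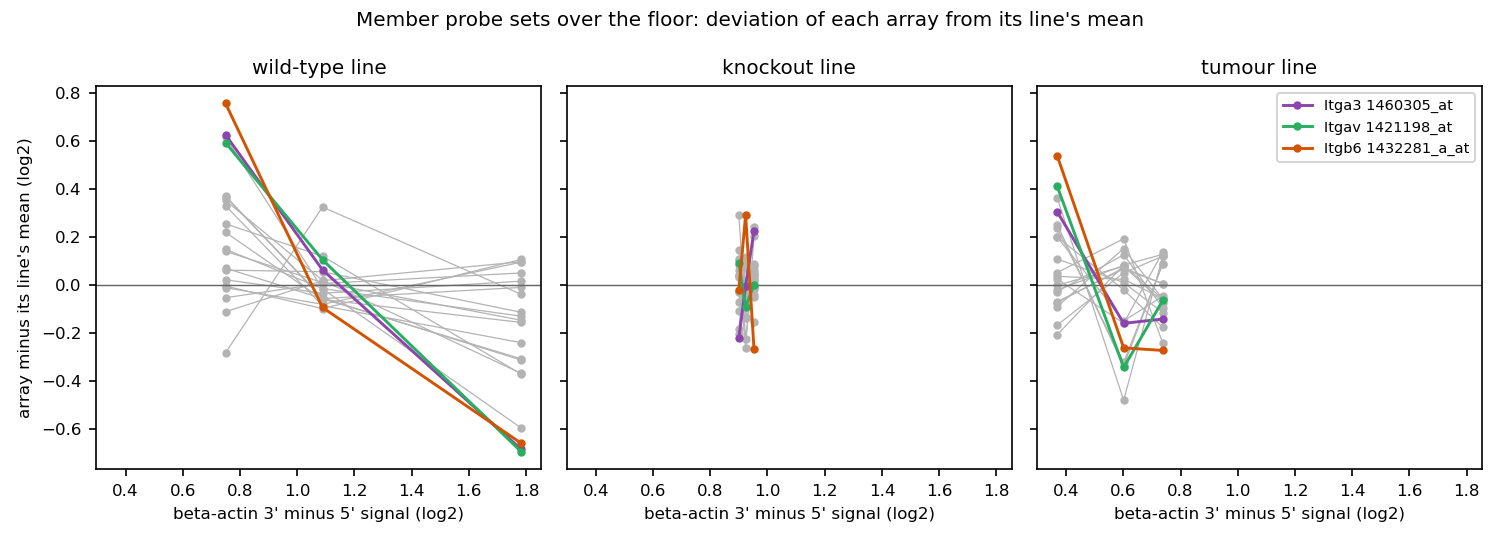
Deviation of each array from its line's mean (log2) for the 20 member probe sets over the floor, against that array's beta-actin 3' minus 5' signal (log2); each line joins the 3 arrays of 1 probe set, and 3 probe sets chosen after their values were seen are coloured. In the wild-type line, where beta-actin runs from 0.75 to 1.78, Itga3 1460305_at, Itgav 1421198_at and Itgb6 1432281_a_at are lower where it is higher. Their SDs are 0.66, 0.65 and 0.71 there, 0.22, 0.09 and 0.28 in the knockout line (0.90 to 0.95) and 0.26, 0.38 and 0.46 in the tumour line (0.37 to 0.74). Of the 20 probe sets, 13 are lowest and 4 highest on wild-type replicate 3, where beta-actin is 1.78.

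For the 4 members whose line means differed at least 2-fold, the genes with the nearest pattern over the 9 arrays were found by the distance between the centred log2 values. For Itga2 these were Gatm, an enzyme of creatine synthesis, at a distance of 0.68 log2, Olr1, a receptor of oxidised lipoproteins, at 0.74, and Plch1, a phospholipase C, at 0.76. For Itga3 they were Mgat4b, a glycosyltransferase of N-glycan branching, at 0.24, Gba2, a glucosylceramidase, at 0.26, and Exosc2, of the RNA exosome, at 0.28. For Itgb3 they were 9130401M01Rik at 0.19, Mettl22 at 0.21 and Usp39, a splicing factor, at 0.22, and for Itgb5 Mfsd6 at 0.23, Mien1 at 0.24 and Elmod2 at 0.24. Pearson's r lay between 0.989 and 0.998 for these 12 genes, which follows from their choice as the nearest patterns. The 9 arrays fall into 3 lines and are not independent points.

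Genes for the matrix ligands of these receptors changed in both directions. The counts of this and the following lists stand against the shares of all genes called: 7.79% higher and 6.38% lower between tumour and knockout lines, 8.09% and 8.46% between tumour and wild-type lines, and 1.90% and 2.98% between the tracheal lines. Of 15 measured RGD and related ligands, 4 rose between tumour and knockout lines (Ccn2, Thbs1, Npnt and Fn1) and 3 fell (Tgfbi, Tnc and L1cam), with a median difference of 0.30 beside 0.00 over all genes. Ccn2, a matricellular protein of the CCN family, read 5.31 to 6.67 on the tracheal arrays and 13.04 to 13.12 on the tumour arrays, a difference of 7.36 ± 0.20 against the knockout line (adjusted p = 3.84e-13). Tgfbi, an RGD-containing matrix protein, read 12.02 to 12.07 on the wild-type, 10.43 to 10.64 on the knockout and 4.72 to 4.85 on the tumour arrays, a fall of at least 41.2-fold from knockout to tumour line. Tnc (tenascin C) was lower by 3.65 ± 0.14 log2 (difference -3.65) and Fn1 (fibronectin), the main ligand of Itga5, was higher by 1.43 ± 0.13. Npnt (nephronectin), a matrix protein with an RGD motif, was higher by 1.70 ± 0.10, and Thbs1 (thrombospondin 1) by 2.19 ± 0.21.

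Against the wild-type line, 5 of these 15 ligands rose in the tumour line, the same 4 and Ccn1, and the same 3 fell, with a median of 0.43 beside 0.01 over all genes. From wild-type to knockout line Thbs1 rose by 1.78 ± 0.21 and 4 fell: Tgfbi (-1.54 ± 0.09), L1cam (-1.27), Mfge8 (-1.24) and Tnc (-1.14 ± 0.14), with a median of -0.03 beside 0.00. Thbs1, Tgfbi, Tnc and L1cam were thus called in all 3 comparisons, which share their arrays by pairs.

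Of 19 measured collagens, laminins and nidogens, Lamb2 rose in the knockout against the wild-type line (1.62) and Col4a1 (-2.41), Col4a2 (-1.38) and Col5a2 (-1.12) fell. Col4a1 and Col4a2, the main chains of basement membrane collagen IV, also fell in the tumour against the wild-type line, with differences of -3.12 ± 0.14 and -2.50, and Lamb2 rose there by 1.60. Col4a1 read 11.53 to 12.10 on the wild-type, 9.48 to 9.49 on the knockout and 8.59 to 8.99 on the tumour arrays, so all 3 lines stood apart. Between tumour and knockout lines Lamb1 rose (1.49) and Col4a2 (-1.11) and Lamb3 (-1.05), a laminin chain of epithelial basement membranes, fell. The medians of the list were -0.03, -0.02 and -0.08 for knockout against wild-type, tumour against knockout and tumour against wild-type lines.

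Of 8 measured genes of latent TGF-beta and its carriers, Ltbp4, which binds latent TGF-beta to the matrix, fell in the tumour line (-1.33 against the knockout and -1.94 against the wild-type line). The related Ltbp3 rose by 1.01 against the wild-type line. For knockout against wild-type 0 of 8 were called in limma, and 4 had an unadjusted p under 0.05, against 35% of all genes. Tgfb1, the ligand itself, missed the 2-fold threshold there at -0.94 (adjusted p = 0.000216) and passed it, as the 1 call of the list, without wild-type replicate 3. The medians were -0.15, 0.15 and -0.01 in the order used for collagens and laminins.

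Of 18 measured genes that switch integrins on or off, 3 rose and 1 fell between tumour and knockout lines. Tln1 (talin 1), which binds beta subunit tails and activates integrins, read 8.96 to 9.78 on the tracheal arrays and 11.22 to 11.32 on the tumour arrays, and rose by 2.04 ± 0.14 against the knockout line (adjusted p = 1.05e-08) and by 1.68 ± 0.14 against the wild-type line. Flna (filamin A), which competes with talin for those tails, rose by 1.12, Dok1 rose by 1.39 and Filip1l fell by 1.92 (log2 difference -1.92). Kank1, a talin-binding protein, fell from wild-type to knockout line, reading 10.67 to 10.83 on the wild-type, 6.18 to 6.62 on the knockout and 6.85 to 7.01 on the tumour arrays (-4.32 ± 0.11, adjusted p = 1.11e-12), and Rasip1, an effector of Rap1, fell there by 1.01 (-1.01). Between tumour and wild-type lines 3 rose (Tln1, Flna and Dok1) and 4 fell (Kank1, Filip1l, Rasip1 and Raph1). The list's medians were 0.05, 0.28 and 0.30 in the same order.

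Of 29 measured genes of the focal adhesion scaffold and its kinases, 3 rose (Parvb, Tns4 and Git1) and 1 fell (Rsu1) between tumour and knockout lines, and 2 rose (Parvb and Ptk2b) between tumour and wild-type lines. Parvb (beta-parvin), a partner of integrin-linked kinase, was under the floor on all 6 tracheal arrays, read 9.83 to 10.26 on the tumour arrays and was at least 29.9-fold higher there than in either tracheal line. Tns4 (tensin 4), which binds beta subunit tails, rose by 1.24 and Git1 by 1.07, and Rsu1 fell by 1.25 (-1.25). Ptk2b, a kinase related to focal adhesion kinase, rose by 1.36 against the wild-type line. Focal adhesion kinase itself (Ptk2) is not among the 29 measured genes. For knockout against wild-type 0 of 29 were called in limma, and 14 had an unadjusted p under 0.05, against 35% of all genes. The medians of the list were -0.02, 0.27 and 0.23.

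Of 24 measured trafficking and lateral partners, 4 rose between tumour and knockout lines (Tspan1, Plaur, Tspan8 and Cd82) and Dab2, an endocytic adaptor of integrins, fell by 2.59 (-2.59). Plaur, the urokinase receptor that binds several integrins, read 6.47 to 7.64 on the tracheal and 9.86 to 10.04 on the tumour arrays and rose by 2.99 ± 0.22. The tetraspanin Tspan1 rose by 3.90 ± 0.13 and Tspan8 by 1.98, and these 3 also rose against the wild-type line while Dab2 fell there (-3.11). Cd82, a tetraspanin that slows cell migration, fell by 1.26 in the knockout against the wild-type line (-1.26) and rose by 1.22 in the tumour against the knockout line. The medians were -0.03, -0.08 and -0.10.

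**Figure D4:**
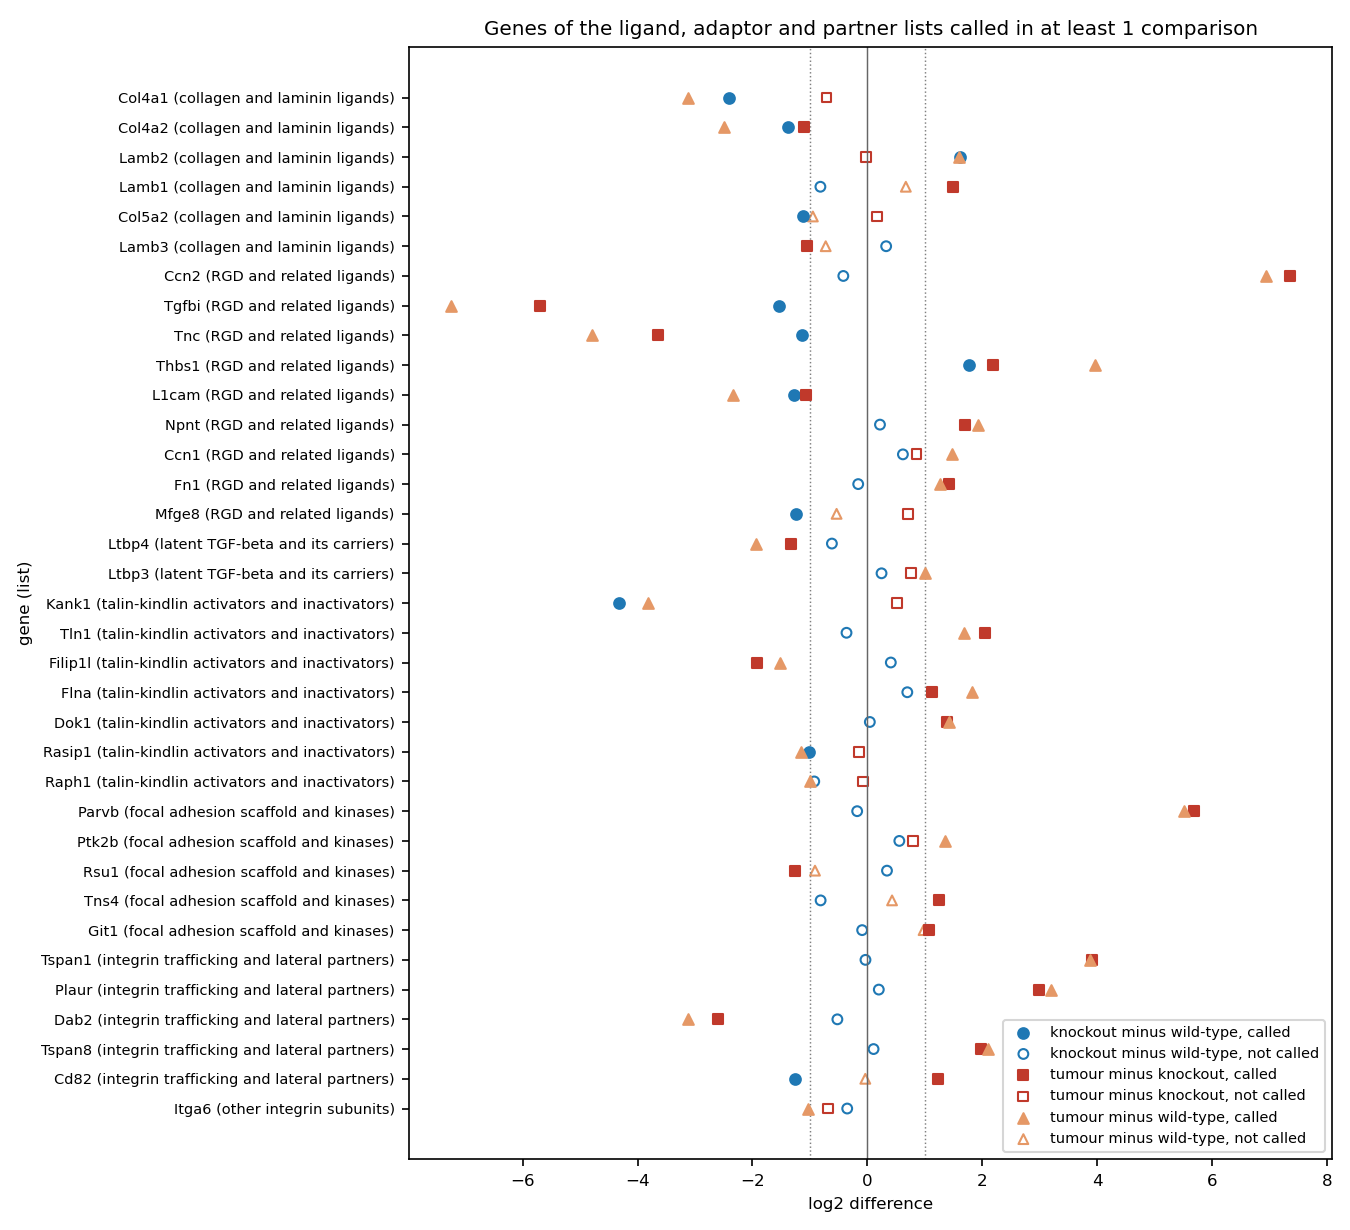
Log2 difference in each comparison for the genes of the ligand, activator, scaffold, partner and other-integrin lists that were called in at least 1 comparison; filled symbols were called and dotted lines mark 2-fold. Ccn2 and Parvb lie farthest to the right and Tgfbi farthest to the left in the tumour comparisons, and Kank1 stands out between knockout and wild-type lines.

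The list of other integrins held 16 measured genes, among them the integrin-beta-like gene Itgbl1. Of these, 0 were called in limma either for knockout against wild-type or between tumour and knockout lines. In each case 3 had an unadjusted p under 0.05, against 35% and 49.5% of all genes. The list's medians were 0.11, -0.06 and 0.04. Among these 16, Itga6, the laminin-binding alpha subunit of the hemidesmosome, was the 1 call in the tumour against the wild-type line (-1.03 ± 0.09, adjusted p = 1.05e-07). Its arrays read 13.45 to 13.47, 13.08 to 13.13 and 12.32 to 12.54 in wild-type, knockout and tumour line, without overlap. It shares laminin as a ligand with Itga3, which rose in the same comparison by 1.21 ± 0.10. Itgb4, the partner of Itga6, differed by 0.58 ± 0.16 there (adjusted p = 0.00682), under 2-fold.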

How the data were processed

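Total RNA of 9 arrays was measured on the Affymetrix MG-430 2.0 platform, per the labels. The deposited values were taken to be log2 signals from their range, 1 per probe set; how the authors corrected, summarised and normalised them is not stated in the sources used. Array medians lay between 6.28 and 6.34. Arrays give no counts, and their number limits the precision. Whether replicates came from separate cultures is not said in the labels, so the p-values cover the spread among arrays, which may be technical.

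Genes were named through the platform annotation, with symbols updated by Entrez ID (34741 of 34945 probe sets with 1 symbol); 932 probe sets with several symbols and 9160 with none were left out of the gene fit. Among a gene's single-symbol probe sets, the brightest on average stood for it. A linear model over all 9 arrays with 3 line means was fitted with limma 3.58.1 in R 4.3.3 (6 residual degrees of freedom), with two-sided p-values adjusted by Benjamini-Hochberg over 18193 genes, or over 45037 probe sets where each was tested on its own. The procedure was tested on simulated data. A fold is a lower bound where the dimmer line was under the floor on all arrays.

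The members, gene lists and named genes were chosen with earlier results of these data known. Of each list, up to 4 called genes with the largest difference were named by rule; Col5a2, Lamb3, L1cam, Npnt, Ccn1, Fn1, Mfge8, Dok1, Rasip1, Raph1, Git1 and Cd82 were named after their values were seen, to complete short counts, as were Itgb4, Itgb2 and Tgfb1. Alternatives were quantile normalization, median centring, a filter on dim probe sets, the mean of probe sets, other probe set choices, other fold thresholds, an intensity trend, fits of 2 lines, a replicate block and leaving out each array.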

Additional observations from a re-analysis of the deposited data

How the results depend on the processing

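The calls of integrin genes numbered 0 between the tracheal lines, 4 between tumour and knockout and 3 between tumour and wild-type lines. They stayed so in each of the 9 fits without 1 array and under quantile normalization, median centring or an intensity trend. The same held in fits of the compared lines alone and without suffixes _x_at and _s_at. It also held without the dimmest 40% of probe sets, where Itga1 and Itgb8 dropped out. With no fold threshold the calls numbered 2, 8 and 7, against 26.4%, 44.5% and 47.3% of all genes. The 8 and the 7 include Itgb8, which was under the floor on every array. At 1.5-fold tumour against wild-type had 4, with Itgb3 added, against 29.6% of all genes. With a gene's probe sets averaged, tumour against knockout had 3, Itgb3 (0.58) being lost. With every probe set fitted on its own, the counts were unchanged for the probe sets that stand for the genes. Itgav 1421198_at, which does not stand for its gene, was also called there for tumour against wild-type lines (1.23, limma adjusted p = 0.00300).

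Signs turned only where the difference was not called. With probe sets averaged, Itga1 gave -0.011 between the tracheal lines and 0.064 and 0.053 for the tumour line against knockout and wild-type lines, Itgav gave 0.087 (adjusted p = 0.5) and 0.27 (adjusted p = 0.0271) in the tumour comparisons, and Itgb6 gave 0.027 for knockout against wild-type. Itgb6 gave 0.022 there under quantile normalization. Itga5 for tumour against wild-type gave 0.0033 with centred arrays and 0.055 without probe sets of suffix _x_at or _s_at. Leaving out 1 array moved knockout against wild-type from -0.088 to 0.11 for Itga1, -0.090 to 0.21 for Itga2, -0.0022 to 0.14 for Itgav, -0.23 to 0.059 for Itgb1, -0.35 to 0.36 for Itgb6 and -0.021 to 0.072 for Itgb8. It moved tumour against knockout from -0.33 to 0.028 for Itga1, and tumour against wild-type from -0.29 to 0.067 for Itga1, from -0.042 to 0.034 for Itga5 and from 0.88 to 1.53 for the second-brightest Itgav probe set. The cause was not tested.

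Same-numbered arrays of different lines had correlated deviations between -0.14 and 0.12, so the numbers were not taken as pairs; with the replicate number as a block the calls were 0, 4 and 3, the same genes. Itga1 and Itgb8 lie near or under the floor in all lines, and Itga2 and Itgb3 lie near it in the tracheal lines. A change in RNA can be understated there.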

Other observations

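Keratin genes differed between the lines in both directions. The mean log2 signal of the 9 epithelial markers was 11.59 to 11.75 on the wild-type, 11.46 to 11.69 on the knockout and 11.25 to 11.34 on the tumour arrays, which did not overlap with the others. Their median differences were 0.30 between tumour and knockout and 0.29 between tumour and wild-type lines. Of the 9, 3 were called higher and 2 lower between tumour and knockout lines, against 7.79% and 6.38% of all genes. Between tumour and wild-type lines 4 were called higher and 3 lower, against 8.09% and 8.46%. Krt14 and Krt5, the keratins of basal cells, fell in the tumour against the knockout line by -7.42 and -5.96 log2, and Krt18, a keratin of simple epithelia, rose by 3.50. Krt19 fell by -4.90 in the knockout against the wild-type line and rose by 6.74 in the tumour against the knockout line. Acta2, smooth muscle actin, fell in each comparison, by -1.41, -1.61 and -3.01 for knockout against wild-type, tumour against knockout and tumour against wild-type lines. Cd53, a leukocyte tetraspanin, rose by 1.53 in the tumour against the knockout line. Itgb2, the leukocyte beta subunit, was 0.73 higher in the knockout than the wild-type line (adjusted p = 2.96e-05). In the tumour line it was 0.17 above the knockout line (adjusted p = 0.170) and 0.90 above the wild-type line (adjusted p = 1.01e-06). Each difference was under 2-fold.

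Itgb1 probe sets that cite 1 source sequence read far apart. Of these, 3 are annotated to the same accession: 1426918_at read 10.93 to 11.75 over all 9 arrays, 1426920_x_at 3.78 to 4.38 and 1426919_at 3.37 to 3.65. The dimmer ones are under the floor throughout, and 1426920_x_at nevertheless gave a knockout minus wild-type difference of -0.46 ± 0.09 (adjusted p = 0.00459, all probe sets tested).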
